A study of Homo sapiens with 12 samples.

Results

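On 13 chromosomes of the human renal cell carcinoma line Caki-1, 1606 genomic regions carried a peak of the histone mark H3K27ac in both libraries of the parental cells and in neither library of a cabozantinib-resistant derivative. They are called lost regions here and were chosen by the presence of peaks alone, after the peaks of the 4 deposited lists had been merged wherever they overlapped by 1 bp or more. The 13 chromosomes (1, 4, 5, 8, 11, 13 to 18, 20 and 21) held 48074 merged regions of any kind, so lost regions were 3.34% of them. On all 23 chromosomes there were 3496 lost regions among 89076. Cabozantinib is an inhibitor of receptor tyrosine kinases, among them MET, AXL and the VEGF receptors. The parental Caki-1 cells grew in RPMI 1640. The resistant cells were derived from Caki-1 in McCoy's 5A with cabozantinib at 5 µM, stepped up to 20 µM within 2 months, and were then held at 10 µM. Drug, medium and selection therefore changed together between the lines and cannot be told apart. Each line had 2 H3K27ac libraries, named parental 1 and 2 and resistant 1 and 2, and the labels do not say whether the members of a pair came from separate cultures.

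H3K27ac is the acetylation of lysine 27 on histone H3, written mainly by the acetyltransferases p300 and CBP and removed by histone deacetylases. It lies at promoters of transcribed genes and at active enhancers, where it separates enhancers in use from those that are only primed. Enhancers of one gene often stand in groups, and a cell that changes state commonly gives up such groups and takes on others. In kidney tubule cells and the carcinomas that arise from them, many of these enhancers are bound by lineage factors such as PAX8. In the RNA libraries of the same lines, PAX8 stood at 210 and 205 TPM in the parental and 133 and 133 in the resistant cells. The keratins KRT8 and KRT18 and vimentin were also present in all 4 libraries, at 219 TPM or more. PAX2 was listed at 0 in all 4, and CA9, a marker of clear cell carcinoma, at 0.90 TPM or less. Of the markers of other cells, CD3E (T cells) and CDH5 (endothelium) were listed at 0 and PTPRC (blood) and COL3A1 (stroma) at 0.12 TPM or less, while the stromal proteoglycan DCN stood at 9.23 and 10.98 TPM in the parental and 1.92 and 0.33 in the resistant cells.

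A lost region is one where no peak was called in the resistant libraries, and the mark may be present there below the threshold of the call. A smaller share of cells with the mark and less of it per cell cannot be told apart in such data. The lists held 54810 and 57975 peaks in the parental and 52367 and 52856 in the resistant libraries. On the 13 chromosomes the median peak was 680 and 930 bp wide in parental 1 and 2 and 610 and 1040 bp in resistant 1 and 2, so the second library of each line had the wider peaks. Of the merged regions, 10753 (22.4%) had a peak in all 4 libraries and are called retained, 1718 (3.57%) showed the reverse of loss and are called gained, and 24153 (50.2%) had one in a single library. The pattern of a peak in parental 2 and resistant 2 alone was commoner than loss, with 2216 regions, and that of parental 1 and resistant 1 alone was rarer, with 558. Parental 1 paired with resistant 2 alone held 1017 regions, and parental 2 with resistant 1 alone 692. Loss and gain were thus close to equal in number, and neither was the commonest pattern of 2 libraries. The count rested on all 4 lists: with 1 list left out, lost regions numbered 9577 without parental 1, 6364 without parental 2, 2107 without resistant 1 and 4578 without resistant 2, since fewer lists then had to meet the rule.

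Lost regions were spread unevenly over the 13 chromosomes, although these had been grouped as reference chromosomes. Chromosome 11 had the highest share, 183 of 4414 merged regions or 4.15% (exact Clopper-Pearson 95% interval 3.58 to 4.78%). Chromosome 14 had the lowest, 29 of 1640 or 1.77% (1.19 to 2.53%). These intervals cover counting error over regions only, and do not allow for the choice of both chromosomes as the extremes. Chromosomes 1, 4, 5, 8, 11 and 17 had more lost than gained regions, with ratios of lost to gained from 1.04 to 1.30, and the other 7 had fewer. On chromosomes 14, 16 and 18 there were at least 2 gained regions to each lost one: 83 against 29, 149 against 66, and 75 against 36. Chromosome 14 resembled chromosomes 9 and X, which are outside the 13: its ratio of lost to gained was 0.349, theirs 0.363 and 0.364. The share of each library's peaks on chromosome 14 was 1.83 and 1.68% in the parental and 2.01 and 2.19% in the resistant libraries, without overlap between the lines. The same share was higher in both resistant than in both parental libraries on 7 of the 13 chromosomes (1, 14, 15, 16, 18, 20 and 21), lower in both on chromosome 11, and overlapped on 5. These shares are of the whole list, so they also depend on the peaks of the other 10 chromosomes. The 13 together held 28629 of 54810 peaks in parental 1 and 30616 of 57975 in parental 2. In resistant 1 and 2 they held 29482 of 52367 and 28872 of 52856. Chromosome 1 had more lost than gained regions, 337 against 309, although it held 10.5 and 10.5% of the parental and 11.8 and 10.6% of the resistant peaks. Chromosome 18 held 1.53 and 1.53% of the parental against 1.84 and 1.98% of the resistant peaks, and chromosome 20 held 2.17 and 1.85% against 2.61 and 2.35%, also without overlap. On chromosome 17, which had the highest ratio of lost to gained, the lines overlapped, at 5.48 and 5.03% against 5.72 and 4.72%. The 13 chromosomes were thus not a uniform reference. The number of DNA copies was not measured here, and its part in these shares was not tested. On the other 10 chromosomes 4.61% of merged regions were lost and 3.26% gained, and chromosome 6 had the highest share of lost regions there, 6.47%.

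**Figure D1:**
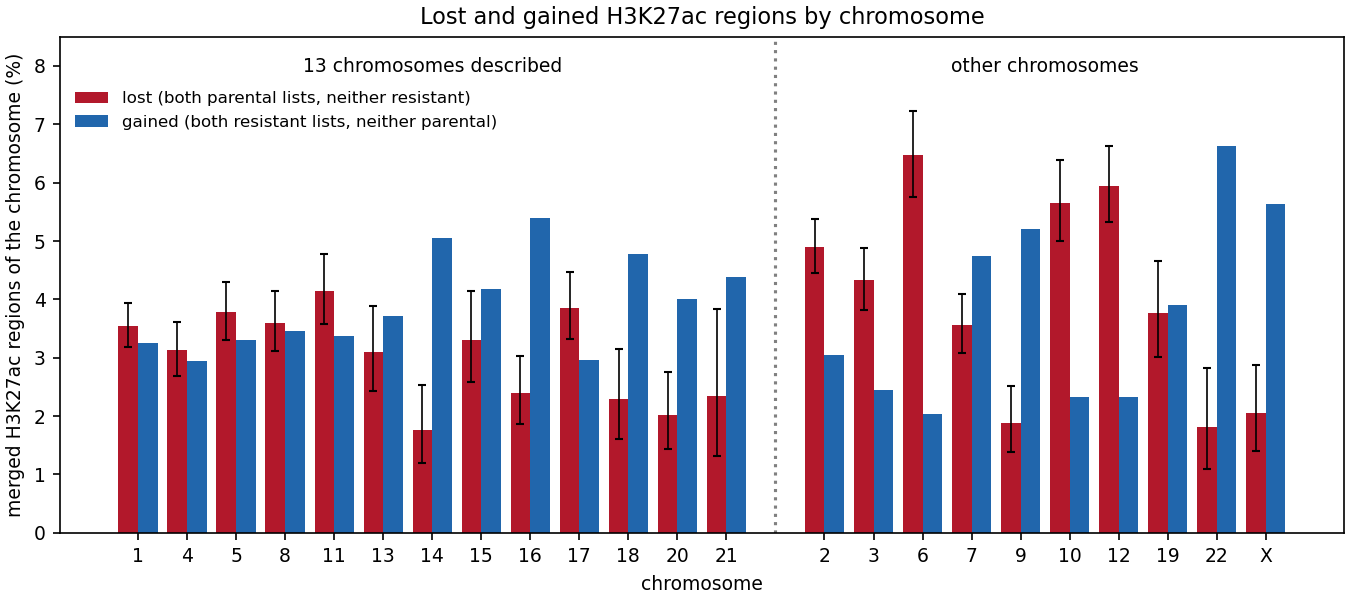
Share of merged H3K27ac regions of each chromosome that were lost (red) or gained (blue), in percent, with the exact 95% binomial interval of the lost share as bars. On the 13 chromosomes at the left, the lost share runs from 1.77% (chromosome 14) to 4.15% (chromosome 11), and chromosomes 13, 14, 15, 16, 18, 20 and 21 have more gained than lost regions.

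Lost regions were narrow and weak beside retained ones. Their median width was 1000 bp, with 10% at 576 bp or less and 10% at 1927 bp or more, against a median of 2706 bp for retained regions and 984 bp for gained ones. A width of 2000 bp or more was reached by 139 lost regions (8.66%), by 9.08% of gained and by 69.7% of retained regions. Width joins the peaks of 4 libraries in retained regions but of 2 in lost and gained ones, which widens retained regions by construction. Within parental 1 the median peak length was 516 bp in lost and 1458 bp in retained regions, and within parental 2 it was 807 and 1963 bp. The score is the authors' value per peak, of unnamed unit and with a minimum just above 2. Whether it has the same scale in every list is not known, so levels were also read as places within a list. The median lost region scored 4.93 in parental 1 and 5.18 in parental 2, where retained regions scored 13.7 and 13.3. Those medians of lost regions stood at or above 31.8% of the parental 1 list and 39.3% of the parental 2 list, whereas the retained medians stood at or above 78.1% and 79.97%. Gained regions held a like place in their own lists, at 39.8% in resistant 1 and 35.0% in resistant 2. The weaker of the 2 parental scores, which takes both lists at face value, had a median of 4.002 in lost regions. It reached 5 in 448 lost regions (27.9%), 10 in 36 (2.24%) and 20 in 5, against 84.3%, 52.9% and 21% of retained regions. Since the absence of resistant peaks chose the regions, these differences describe the choice and were given no test.

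The parental libraries overlapped less, and ranked regions less alike, in lost than in retained regions. In 1539 of the 1606 lost regions (95.8%) each parental list held a single peak. The median peak length was 516 bp in parental 1 and 807 bp in parental 2, and the parental 1 peak lay wholly inside parental 2 peaks in 34.3% of lost and 34.1% of retained regions. The 2 libraries shared a median of 42.8% of their joint peak length in lost regions and 59.1% in retained ones. Across lost regions the scores of parental 1 and 2 had a Spearman's rho of 0.24 (n = 1606), and across retained regions 0.69 (n = 10753). Width and the weaker score had a rho of 0.20 across lost and 0.39 across retained regions. Regions are not independent replicates, all scores share the depth of their library, and scores of lost regions span a short range, so these correlations are descriptions.

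**Figure D2:**
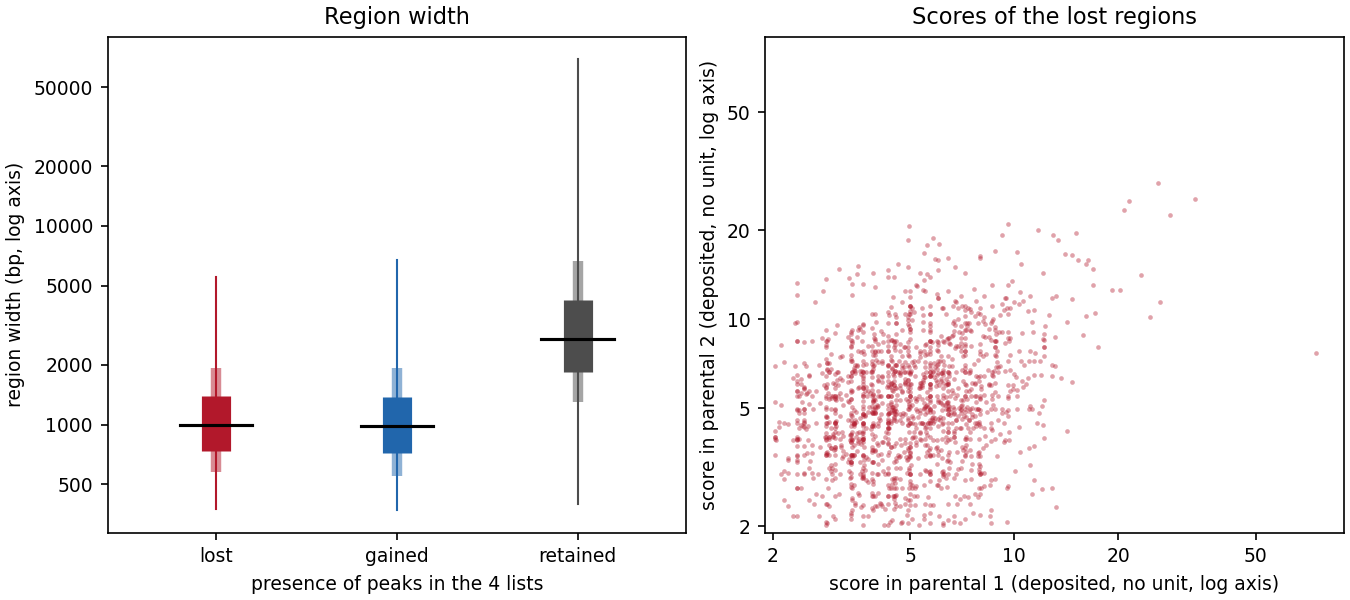
Left, region width in bp on a log axis by class: black line the median, thick bar the middle quartiles, paler bar the 10th to 90th percentile, thin line the whole range. Right, deposited score of each of the 1606 lost regions in parental 1 against parental 2, both on log axes; most points lie below 10 on both axes, and 1 point stands at 74.8 in parental 1.

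The strongest lost region, by its weaker parental score, was chr8:125763271-125766337 (hg19), 3067 bp wide, which scored 26.1 in parental 1 and 28.9 in parental 2. These scores stood at or above 92.1% and 95.1% of their lists. The nearest peak of either resistant library was 17.9 kb away. Next came chr11:125932370-125933239, only 870 bp wide, with scores of 33.4 and 25.5 and no resistant peak within 99.3 kb. The region chr16:80574241-80575377 scored 28.2 and 22.4, and the nearest resistant peak was 427 kb off. Not all of the strong regions stood so far from resistant peaks. On chromosome 11, chr11:130742551-130745170 (2620 bp) scored 21.5 and 25.1 with a resistant peak 7.06 kb away, and chr1:158254213-158256440 (2228 bp) scored 20.7 and 23.3 with one 84.6 kb away. These 5 are all the lost regions with both scores at 20 or more.

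The other 5 of the 10 strongest had weaker scores from 14.8 to 15.9. Among them chr1:21564136-21566002 scored 16.3 and 15.9 and had another lost region 1.24 kb away, and chr1:230707804-230709368 scored 16.1 and 15.4 and lies in a run of 5 lost regions described below. The region chr8:140380867-140384297, 3431 bp wide and scoring 15.3 and 15.8, was the most isolated of the 10, since the nearest merged region of any kind lay 863 kb from it. The remaining members were chr8:81344428-81345239, with scores of 15.1 and 19.5, and chr1:160407028-160408403, with 16.9 and 14.8. Of the 10 strongest, 4 were on chromosome 1, 3 on chromosome 8, 2 on chromosome 11 and 1 on chromosome 16. These chromosomes held 337, 186, 183 and 66 of the 1606 lost regions.

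The strongest lost regions of the remaining chromosomes were weaker. On chromosome 4 the leading region was chr4:7853458-7858478, which at 5021 bp was also the second widest of all and scored 14.7 and 16.4. Chromosome 18 was led by chr18:54069218-54070732 (14.1 and 16.6) and chromosome 17 by chr17:6923019-6923782 (13.4 and 18.5). The leading regions of chromosomes 13 (chr13:103934763-103935802), 5 (chr5:75004471-75005568) and 15 (chr15:63426736-63429534) had weaker scores of 10.2, 9.61 and 8.78. Those of chromosomes 14 (chr14:29130066-29131385), 20 (chr20:4131504-4132583) and 21 (chr21:9588731-9589858) had 7.97, 7.19 and 6.51, and the one on chromosome 20 lay 343 bp from a resistant peak. The high scores were thus concentrated in a few regions, and 3 of the 13 chromosomes had no lost region with a weaker score of 8. Those 3 (14, 20 and 21) had only 29, 39 and 15 lost regions, and a highest value depends on their number.

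The 5 widest lost regions ranked 11, 50, 95, 431 and 614 by weaker score among the 1606. The widest lost region, chr5:148916224-148921737, spanned 5514 bp, of which parental 1 covered 652 bp and parental 2 covered 5320 bp, and scored only 4.55 and 6.98. The third widest, chr8:76032670-76037544 (4875 bp), scored 7.97 and 16.3, with no resistant peak within 120 kb. Behind it, chr5:43046693-43051143 (4451 bp) scored 6.49 and 5.11, and chr4:189634350-189638668 (4319 bp) scored 9.21 and 19.3. Apart from the second widest, which parental 1 covered over 4639 bp and parental 2 over 4293 bp, the wide regions were covered over 3751 to 5320 bp in parental 2 and only 652 to 2701 bp in parental 1.

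The rule leaves many regions near its edges. The 5 lost regions with the lowest weaker score all stood at 2.02, next to the minimum of the lists. Just outside, 3048 regions had a peak in both parental and in 1 resistant library. Their 5 lowest resistant scores ran from 2.03 to 2.11, their median resistant score was 6.92, and their median width was 1629 bp. A further 11854 regions had a peak in 1 parental and no resistant library, with a median score of 4.002 in that library. The median weaker score of the lost regions was also 4.002, but it is the lower of 2 scores. The like values of lost regions are their medians per library, 4.93 in parental 1 and 5.18 in parental 2.

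Lost regions were sparse, and their nearest neighbour was another lost region more often than for merged regions in general. The median gap from a lost region to the next one on the chromosome was 320801 bp, with 10% of gaps at 9578 bp or less, against medians of 219742 bp for gained and 30806 bp for the far more numerous retained regions. Another lost region lay within 5 kb of 206 lost regions (12.8%), within 50 kb of 635 (39.5%) and within 1000 kb of 1433 (89.2%). For gained regions the same shares were 15.7, 43.8 and 91.9%. All these shares grow with the number of regions in a class, so the class of the single nearest merged region was read against its share over all merged regions. For 115 of 1606 lost regions (7.16%, exact 95% interval in counting error 5.95 to 8.53%) it was another lost region, against 3.31% over all merged regions. For 24 (1.49%) it was a gained region, against 3.77% over all. Gained regions mirrored this, with 8.91% next to a gained and 1.22% next to a lost region. For retained regions the nearest was lost in 3.19% and gained in 3.36%, close to the shares over all regions. The nearest region was retained for 21.4% of lost regions, against 22.6% over all. Lost regions can be each other's nearest region, so the 115 are not independent and the interval given for them is too narrow.

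Chromosome 1 gave 43 of the 115 lost regions whose nearest neighbour was lost. These were 12.8% of its 337 lost regions, against 3.78% over all merged regions of chromosome 1. Without chromosome 1 the share was 5.67% of lost regions against 3.20% of all regions. It was also above the pooled value on chromosomes 15 (8 of 71) and 13 (7 of 71), while chromosomes 18, 20 and 21 had 0 such pairs among their 36, 39 and 15 lost regions. Lost regions made up 3.30 and 3.10% of the merged regions on chromosomes 15 and 13, and 2.29, 2.02 and 2.34% on chromosomes 18, 20 and 21.

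**Figure D3:**
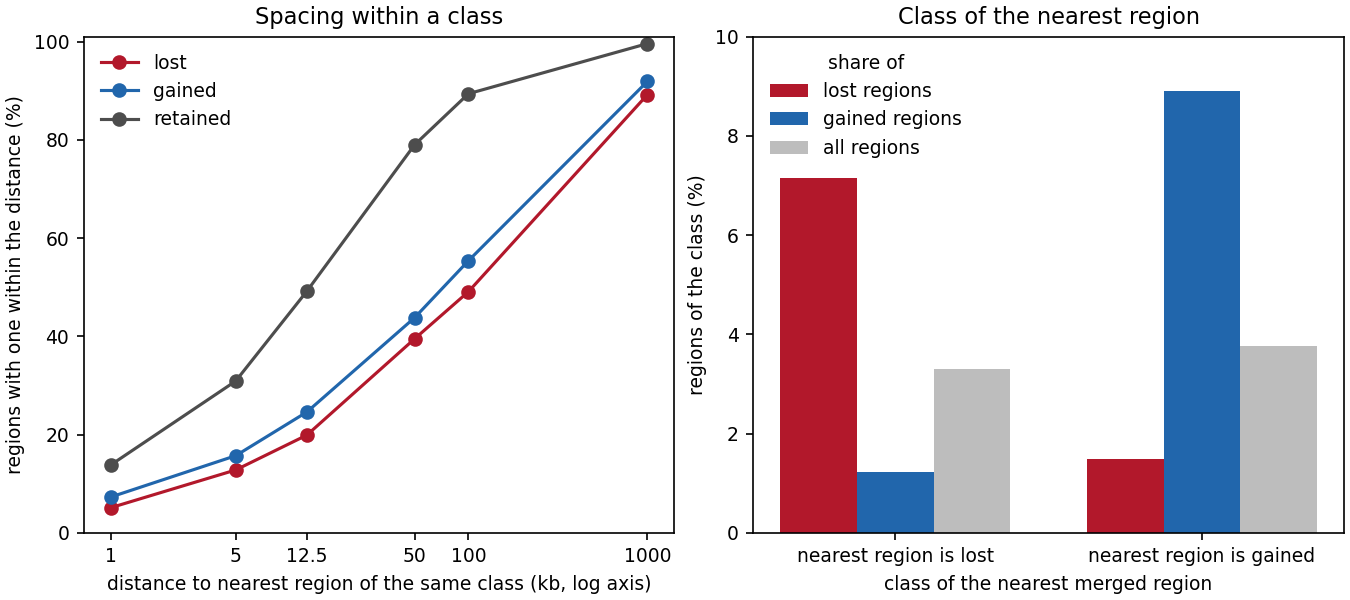
Left, share of lost, gained and retained regions (percent) that have another region of their own class within a given distance (kb, log axis); the lost curve passes 39.5% at 50 kb and 89.2% at 1000 kb. Right, share of lost, gained and all merged regions whose nearest region is lost or gained; 7.16% of lost regions have a lost neighbour against 3.31% of all, and 1.49% have a gained neighbour against 3.77%.

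Most lost regions lay within 10 kb of a peak in the resistant cells. The median distance from a lost region to the nearest peak of either resistant library was 3750 bp, close to the 3523 bp from a gained region to the nearest parental peak. Within 1 kb there were 384 lost regions (23.9%), between 1 and 10 kb 712 (44.3%), between 10 and 50 kb 343 (21.4%), and farther than 50 kb 167 (10.4%). Of gained regions, 26.8% were within 1 kb and 6.34% farther than 50 kb. The widths of the 4 distance groups were alike, with medians of 1006, 998, 987 and 1054 bp. Their weaker scores had medians of 3.93, 3.90, 4.15 and 4.60, and the highest weaker score within 1 kb was 10.6, against 21.5, 26.1 and 25.5 in the farther groups. The nearest region was retained for 30.7% of the lost regions within 1 kb of a resistant peak and for 8.38% of those beyond 50 kb. Retained regions hold resistant peaks by definition, so this difference follows in part from the grouping by distance. The distance limits of 10 and 50 kb were set after the distances were seen.

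Runs of loss were counted in the intervals between neighbouring regions that hold a resistant peak. Of the 1606 lost regions 1603 lay in 1412 such intervals, and 1269 intervals held a single lost region. In 33 intervals there were 3 or more, with 114 lost regions in all (7.11%), and gained regions formed 40 such runs between parental peaks, with 137 regions (7.98%). Chromosome 1 held 10 of the 33, chromosomes 5, 11 and 17 held 4 each, and chromosomes 14 and 20 held 0. Of the 1606 lost regions, chromosome 1 held 337 and chromosomes 5, 11 and 17 held 228, 183 and 172. Chromosomes 14 and 20 held only 29 and 39. The counts of runs were not corrected for these numbers. When only peaks with scores of 5 or more were read in all 4 lists, 5 intervals with 3 or more lost regions were left.

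The run with the most lost regions was on chromosome 15, in an interval of 72.6 kb at chr15:54128955-54201549. Both resistant lists were empty over this stretch, while parental 1 held 9 peaks and parental 2 held 14, which gave 7 lost regions and 8 regions seen in a single parental library. The lost regions were 538 to 3351 bp wide and weak, with highest scores of 7.97 in parental 1 and 6.97 in parental 2. The first of them began 57 bp from the last resistant region on that side. The second run, of 6 lost regions, lay in only 21.7 kb at chr1:182811360-182833105. There the lost regions took up 10818 bp, or 56.6% of the 19.1 kb from the first to the last, against 16% of the 57.4 kb spanned by the run on chromosome 15. Its widest member, chr1:182826083-182830033, was 3951 bp wide with scores of 3.40 and 9.17, and its strongest, chr1:182814729-182816248, scored 11.1 and 11.97. A retained region ended 2025 bp before the run began.

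**Figure D4:**
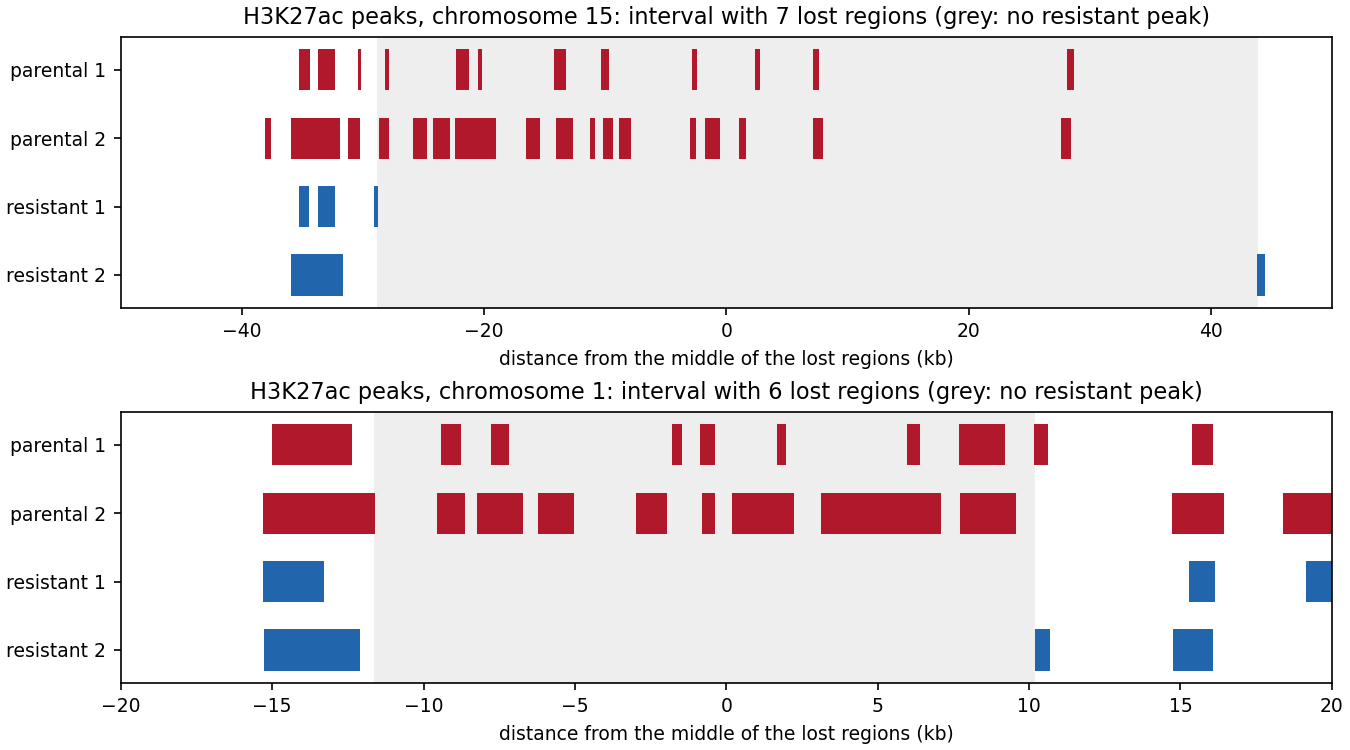
Peaks of the 4 libraries in the intervals with the most lost regions, on chromosome 15 (7 lost regions, top) and chromosome 1 (6 lost regions, bottom), as distance in kb from the middle of the lost regions. Bars are peaks drawn to their width, red parental and blue resistant, and the grey area is the interval of 72.6 kb (top) and 21.7 kb (bottom) in which the resistant lists hold no peak.

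Other runs were spread over longer stretches. On chromosome 1, chr1:230464343-230778205 (314 kb between retained regions) held 5 lost regions, of which the first (chr1:230593659-230595341) scored 6.06 and 17.9, the second (chr1:230643790-230646424) 3.11 and 14.8, and the last was one of the 10 strongest of all. A run of 5 on chromosome 5 lay in chr5:40836193-41413942, with 4 of its members between 40989070 and 41010666 and the fifth at 41408956. Its widest member, chr5:40994340-40997502, scored 3.90 and 14.3. The interval chr1:222014760-222628769 (614 kb) held 4 lost regions, of which chr1:222059305-222062178 scored 10.9 and 10.7.

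The longest interval with 3 or more lost regions was chr17:49339018-51220091, of 1881074 bp. Its 3 lost regions scored from 2.86 to 4.55 in parental 1 and from 8.22 to 10.2 in parental 2, and each was covered over 1078 to 1906 bp in parental 2 and 598 to 799 bp in parental 1. Near the start of chromosome 1, chr1:2575084-3541563 (966 kb) held 3 lost regions and no other parental region. The strongest of them, chr1:3458692-3460539, was covered over 1848 bp in parental 1 and 1760 bp in parental 2 and scored 17.1 and 10.5. On chromosome 13, chr13:60109202-60447572 (338 kb) held 3 lost regions packed into 5.55 kb, of which they took up 70.3%, with the highest scores 7.97 and 10.95.

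In windows of 10 Mb the balance of loss and gain shifted along the chromosomes. The window size was chosen after the data were seen, and 138 windows had at least 100 merged regions. Their lost share had a median of 3.23% and ran from 0.394 to 8.56%. The highest was on chromosome 1 from 190 to 200 Mb, with 22 lost regions of 257 (exact 95% interval 5.44 to 12.7%) and 1 gained region. That interval covers counting error only, and does not hold at 95% for a window picked as the highest of 138. The window before it, from 180 to 190 Mb, came next with 23 lost of 357 (6.44%) and holds the run of 6 described above. Chromosome 11 followed with 21 lost and 7 gained of 332 regions from 40 to 50 Mb. At the other end, chromosome 21 from 40 to 50 Mb had 1 lost and 13 gained of 254 regions, and chromosome 1 from 10 to 20 Mb had 5 lost and 28 gained of 468, so that a single chromosome held both kinds of window. More lost than gained regions were found in 64 windows, more gained in 64 and equal numbers in 10. Across the windows the lost and gained shares had a Spearman's rho of -0.33 (n = 138); the 2 shares have the same denominator and the windows come from the same 4 libraries.

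**Figure D5:**
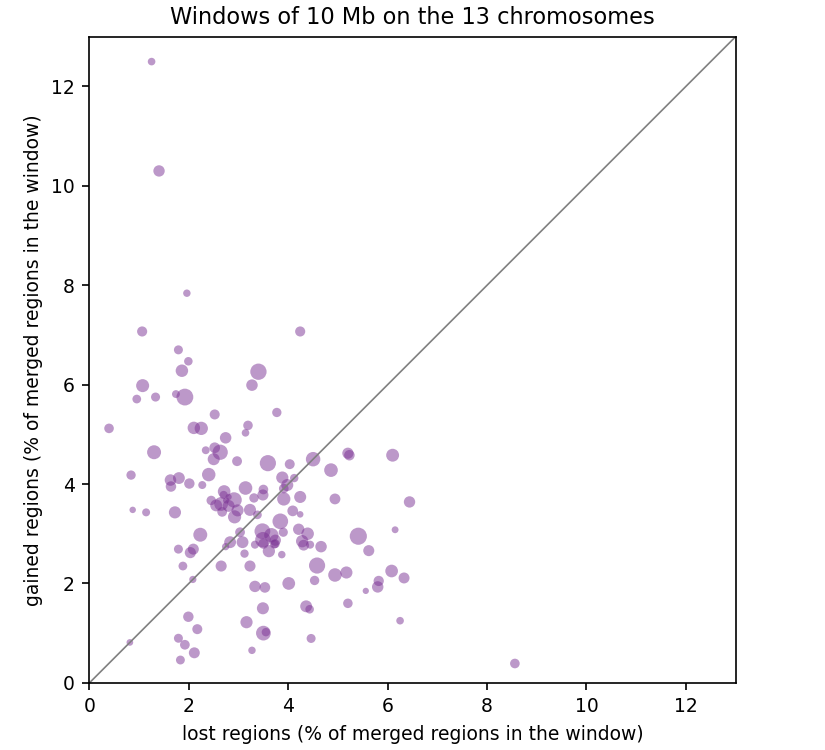
Lost against gained regions as percent of the merged regions in each of 138 windows of 10 Mb on the 13 chromosomes, with point area in proportion to the number of merged regions and the line of equality. The point at the lower right is the window of chromosome 1 with 8.56% lost and 0.389% gained.

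Around lost regions, the mean length covered by peaks was lower in the resistant libraries, by less than the spread between libraries. In the 50 kb on each side of a lost region, the region itself left out, peaks covered on average 7827 bp in parental 1 and 12020 bp in parental 2, and 5255 bp in resistant 1 and 9526 bp in resistant 2. The lines overlapped, since the second library of each line had wider peaks. The mean was 9925 ± 2967 bp in the parental and 7391 ± 3020 bp in the resistant libraries (SD, n = 2), a ratio of 0.745. Around retained regions the same ratio was 1.00 and around gained regions 1.34, while all peaks on the 13 chromosomes covered 37214449 ± 10651913 bp in the parental and 37013389 ± 15065845 bp in the resistant libraries (ratio 0.995). Leaving out a library changed both the set of lost regions and the mean of its line. The ratio was 1.02 around the 6364 regions called lost without parental 2, and 0.984 around the 2107 called lost without resistant 1. Both ratios set libraries of unlike coverage against each other. On the 13 chromosomes peaks covered 29682409 bp in parental 1 and 44746489 bp in parental 2. In resistant 1 and 2 peaks covered 26360228 and 47666550 bp. Neither ratio can thus be read against the 0.745 or 0.995 from all 4 libraries. Around the 1606 lost regions, each of the 4 ways to set 1 resistant against 1 parental library gave 0.658 to 0.824 of the ratio around retained regions. The windows include other lost regions, and both measures come from the libraries that chose the regions, so no test was made.

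Retained regions near a loss had longer peaks in every library than retained regions in general, with the larger differences in the parental libraries. A retained region lay within 10 kb of 44.1% of lost regions. The 630 retained regions that were the nearest to a lost one within that distance had median peak lengths of 1838 and 2613 bp in parental 1 and 2 and 1351 and 2478 bp in resistant 1 and 2. Over all 10753 retained regions the medians were 1458, 1963, 1258 and 2195 bp. The resistant peaks covered a median of 0.848 times the length of the parental peaks in the retained regions near a loss, against 1.01 times over all retained regions. These lengths come from the lists that chose the nearby lost regions, so no test was made.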

How the data were processed

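H3K27ac was measured by chromatin immunoprecipitation in 4 libraries, read as 150-bp pairs per the labels. Cells were fixed in 1% formaldehyde for 10 min. The deposited peak lists give 1 list per library, each peak with a position and a score from the authors. Neither the peak caller, the read depth nor what the score measures was found in the sources used here. Input libraries (4) were left aside. Both GRCh38 and hg19 are named, without roles, per the submitters' processing notes, as are STAR, RSEM and DESeq2 1.40.2. Coordinates were read as hg19, since peaks on chromosome 1 end at up to 249240417, past that chromosome's end in GRCh38. The TPM values of the deposited RNA table served only for the cell markers (12 of 13 were in it, of which 1 is not reported here), and the deposited count table was not used.

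Peaks were merged with Python 3.11.15 and pandas 2.3.3, in code tested on simulated lists. A region's score in a library is its highest peak score there. Samples were grouped by their titles. No test was run, as the lists that chose the regions are the only measure of them. The planned RNA comparison of genes at lost regions was not run and no sequence is shown, because no gene table or genome of hg19 was used here.

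Regions named were the 10 with the highest weaker score, the 5 widest, the highest of each chromosome, the 5 intervals with the most lost regions and the 5 longest with 3 or more. Members, lists and limits were chosen with earlier results of these data known. As alternatives, peaks under a score of 5 were dropped, all lists were trimmed to their 52367 strongest peaks, a library counted only where it covered 50% of the region, peaks up to 500 bp apart were joined, and single libraries were left out in turn.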

Additional observations from a re-analysis of the deposited data

How the results depend on the processing

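No paired analysis was possible because the labels tie the replicate numbers to no shared culture, and no result comes from a test. Set by replicate number all the same, the covered length around lost regions had resistant to parental ratios of 0.671 (replicate 1) and 0.792 (replicate 2). Leaving out a library removes a condition from the rule, so every value that depends on the number of regions moved by construction. Over the 4 libraries left out in turn, the lost regions numbered 2107 to 9577 (4.95 to 21.5% of merged regions). Their median width was 442 to 1172 bp, median weaker score 4.13 to 4.82 and median gap 31491 to 191008 bp. The nearest region was lost for 8.40 to 33.6%, intervals with 3 or more lost regions numbered 48 to 672, and 15.5 to 30.9% lay within 1 kb of a resistant peak. The ratio of covered length around lost regions was 0.554 to 1.02, with the library left out also missing from the mean of its line.

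With scores of 5 or more there were 847 lost regions, 2.96% of merged regions, with a median width of 1286 bp, a median weaker score of 6.37, a median gap of 649586 bp, 5.90% with a lost region nearest, 5 intervals with 3 or more, and 14.2% within 1 kb of a resistant peak. With lists of equal length the lost share was 2.91%, the median weaker score 4.45, the median gap 438982 bp and the number of intervals 20. With cover of 50% of the region the lost share was 3.02%, the median width 1069 bp, the weaker score 4.80, the share with a lost region nearest 5.78% and the share within 1 kb 53.9%, which there includes resistant peaks inside the region. With merging within 500 bp these were 3.58%, 1103 bp, a share of 8.88% with a lost region nearest, and 10.7% within 1 kb. Many members changed: of the 1606 lost regions, 448 (27.9%) overlapped a lost region with scores of 5 or more, 1327 (82.6%) with lists of equal length, 897 (55.9%) with cover of 50% and 1317 (82%) with merging within 500 bp. Leaving out a library keeps all members by construction, and a score minimum or shorter lists favour the strongest. The alternatives planned for the genes at lost regions were not run. The number of peaks called and the minimum score limit what can be called lost.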

Other observations

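The region chr16:54964790-54967896, 3107 bp wide, had the highest parental 1 score of all lost regions, 74.8, and a parental 2 score of 7.72, and was chosen after its values were seen. Scores were shared by many peaks, with 7647 distinct values among the 54810 peaks of parental 1 and 7514 among the 57975 of parental 2, so ranks of weak regions contain many ties.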
